A study of Mus musculus with 62 samples.

Results

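De novo lipogenesis is the making of fatty acids from carbohydrate carbon. The 10 genes described here were picked by name for their place in that route, Srebf1, Mlxipl, Acly, Acaca, Acacb, Fasn, Elovl6, Scd1, Scd2 and Me1, out of 48795 genes in the deposited count table. Each matched 1 row, and all 10 had enough reads to be tested in every comparison. The RNA-seq libraries came from whole-body Fam13a knockout (KO) mice, made from KOMP embryonic stem cells with a loxP-flanked exon, and from wild-type (WT) controls, both on a C57BL6 background. Male WT and KO mice on chow or on a high-fat diet (HFD) gave liver, subcutaneous fat (SAT, the inguinal depot) and visceral fat (VAT, the gonadal depot), with 4 libraries per group. Female mice on HFD gave SAT and VAT, with 4 KO and 3 WT libraries per depot. HFD began in young adulthood and went on until the mice were killed. The age of the chow-fed mice is not given in the sources used here, so that diet and any difference in age cannot be told apart. Mice whose tissues went to histology had been fasted overnight, and the sources do not say whether the tissues for RNA came from fasted mice.

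Citrate exported from mitochondria is split by ATP citrate lyase to give cytosolic acetyl-CoA. Acetyl-CoA carboxylase turns it into malonyl-CoA, fatty acid synthase builds palmitate, and malic enzyme is among the sources of the NADPH this consumes. Elongation and desaturation then give stearate, palmitoleate and oleate. In liver, transcription of these enzymes is known to follow insulin through SREBP-1c, a product of Srebf1, and glucose through ChREBP, the product of Mlxipl. White adipose tissue has the same enzymes, with ChREBP as a main regulator.

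The genes lie on 5 chromosomes (GRCm38, GENCODE M21). Fasn is at chr11:120805846-120824547, Acly at chr11:100476353-100528000 and Srebf1 at chr11:60199089-60222581, all on the minus strand, and Acaca is at chr11:84129672-84401651 on the plus strand. Scd1, at chr19:44394455-44407879 on the minus strand, and Scd2, at chr19:44293674-44306864 on the plus strand, are neighbours and paralogs, so that reads they share could be split between them. Acacb is at chr5:114146535-114250761 and Mlxipl at chr5:135089890-135138382, both on the plus strand. Elovl6 is at chr3:129532355-129638495 on the plus strand and Me1 at chr9:86581371-86695953 on the minus strand. Exons of Elovl6, Me1, Srebf1 and Mlxipl overlap those of a gene on the opposite strand, and whether strand was used in counting is not stated. Counts are per gene over all exons, and isoforms were not separated.

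Promoter sequence is shown for the 2 regulators and for Fasn and Me1, since both regulators rose with HFD in male liver, Fasn in liver and SAT, and Me1 in SAT and VAT. The stretches are the 200 bases before an annotated start (RefSeq, GRCm38.p6), written 5′ to 3′ on the gene's strand. RefSeq entries matched 8 of the 10 genes, with 12 starts, and not Scd1 or Scd2. Capitals mark matches on either strand to a sterol response element (SRE, TCACNCCAC), its core (TCACCC, which lies inside the SRE when N is C), an E-box (CACGTG, the same on both strands), a CCAAT box (CCAAT) or a GC box (GGGCGG).
Srebf1, chr11:60210472-60210671, minus strand: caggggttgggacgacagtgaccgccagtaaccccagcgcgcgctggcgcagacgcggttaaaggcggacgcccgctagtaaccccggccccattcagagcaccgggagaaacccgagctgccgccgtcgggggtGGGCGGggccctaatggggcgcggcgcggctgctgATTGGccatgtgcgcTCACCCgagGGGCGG
Mlxipl, outer start, chr5:135089690-135089889, plus strand: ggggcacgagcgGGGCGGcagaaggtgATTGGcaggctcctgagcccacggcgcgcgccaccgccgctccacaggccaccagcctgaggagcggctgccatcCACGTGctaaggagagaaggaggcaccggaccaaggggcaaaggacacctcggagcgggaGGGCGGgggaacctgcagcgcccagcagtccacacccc
Mlxipl, inner start, chr5:135106691-135106890, plus strand: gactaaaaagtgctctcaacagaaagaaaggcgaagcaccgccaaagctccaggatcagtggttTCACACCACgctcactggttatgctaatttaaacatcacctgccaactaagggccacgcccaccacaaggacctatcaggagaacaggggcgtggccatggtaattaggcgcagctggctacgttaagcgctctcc
Fasn, chr11:120824548-120824747, minus strand: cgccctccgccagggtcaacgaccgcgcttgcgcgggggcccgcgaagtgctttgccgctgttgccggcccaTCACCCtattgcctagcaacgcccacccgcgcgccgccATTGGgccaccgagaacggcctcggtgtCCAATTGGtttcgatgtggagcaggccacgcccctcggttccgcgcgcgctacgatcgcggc
Me1, chr9:86695915-86696114, minus strand: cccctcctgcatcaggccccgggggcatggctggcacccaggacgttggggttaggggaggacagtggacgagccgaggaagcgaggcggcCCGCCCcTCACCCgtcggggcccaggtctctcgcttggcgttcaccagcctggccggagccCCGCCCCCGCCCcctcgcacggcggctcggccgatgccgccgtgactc
Of the 3 annotated starts of Srebf1 and the 2 of Me1, the start with the most matches is shown. The other stretches held 2 and 1 matches for Srebf1 and 0 for Me1. Mlxipl has transcripts from both starts shown. Gene counts cannot tell starts apart, so none of the values below belongs to 1 promoter. The stretch for Srebf1 held the SRE core, a CCAAT box and GC boxes, and that for Fasn held the SRE core and 3 CCAAT matches. At Mlxipl the outer start had an E-box and the inner start an SRE. Among all 32851 mouse promoters, searched over 250 bases before the start, 1.05% held the SRE, 13.8% its core, 6.02% the E-box, 33.8% a CCAAT box and 32.7% a GC box. In the same window, of all 12 starts of these genes, 1 held the SRE, 3 its core and 1 the E-box. A CCAAT box was at 6 of the 12 and a GC box at 5. Acaca and Elovl6 had no match. The stretches shown were picked and do not stand for the 12. A pair of exact E-boxes 5 bases apart, a form of carbohydrate response element, was in no promoter. A match gives letters in a window and not a bound site.

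The 62 libraries held between 4959783 and 28723319 counted reads, with a median of 21694089. Reads from 1 ribosomal RNA gene took 0.0127% to 75.4% of a library (median 1.06%). That gene was left out of the TPM sums and kept in the library sizes behind CPM and the tests. Levels below are CPM, a gene's reads relative to the reads of its library after TMM scaling for composition, and levels between genes or tissues are TPM, which also allow for exon length. Changes are log2 fold changes ± standard error from edgeR's quasi-likelihood test, and a gene is called changed at a Benjamini-Hochberg adjusted p within a false discovery rate of 10%. No sequencing lane held libraries of both diets, adipose libraries of both sexes on HFD, or chow libraries of more than 1 tissue, so that these contrasts and the lane cannot be told apart. The labels do not say which mouse gave which library, so p-values measure only the spread between libraries. Fam13a itself was lower in every KO library than in every WT library in male SAT on either diet and in HFD liver, while the groups overlapped in the other 5 pairs. In bulk tissue, fewer cells of a type and less RNA per cell cannot be told apart. Hepatocyte markers summed to 81504 to 131262 CPM in liver. Adipocyte markers summed to 7022 to 24412 CPM in the fat depots.

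On chow, the fat depots held higher levels of most of these transcripts per length than liver. The median TPM of Fasn over 8 libraries was 10.9 in liver, 117 in SAT and 178 in VAT. Scd1, which encodes the main stearoyl-CoA desaturase of liver and fat, was the most abundant member in each tissue, with 1824, 9104 and 13748 TPM. Srebf1 stood at 5.86, 53.1 and 56.8 TPM. The order was the opposite for Mlxipl, at 27.5, 9.64 and 11.4 TPM, and for Elovl6, the elongase that takes palmitate to stearate, at 13.0, 5.43 and 8.29 TPM. Scd2, a close paralog of Scd1, was at 1.78 TPM in liver and at 22.1 and 20.9 TPM in the depots. Between liver and SAT, 6 members were lower and 3 higher in liver, against 79.6% of all genes called (45.3% lower and 34.2% higher). Between liver and VAT, 6 were lower and 2 higher, against 77.3% of all genes (43.8% lower and 33.5% higher). The median gene differed by -0.24 and -0.22 in these contrasts, and by -0.42 and -0.39 under another scaling, so that only differences well beyond this are of use. Fasn was lower in liver than in SAT by -2.29 ± 0.30, Srebf1 by -1.95 ± 0.20, and Mlxipl was higher by 2.69 ± 0.17. Elovl6 (2.66) and Acly (0.59) were the others called higher in liver than in SAT. By TPM, without TMM scaling, Acly went the other way, at 32.1 in liver and 55.1 in SAT, so that its direction depends on the measure. Me1 likewise was at 31.3 and 72.8 TPM, where the fit gave 0.08 and no call. Between the depots, 5 members were higher in VAT (Fasn, Acaca, Acly, Scd2 and Elovl6), and none lower, against 42.3% of all genes called (23.5% higher and 18.8% lower). Those of Scd2 and Acly rested on 2 libraries described with the VAT results. Without those 2, Acacb (0.56), Scd1 (0.85) and Me1 (0.43) were also called higher in VAT, 6 members in all, against 39.3% of genes.

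**Figure D1:**
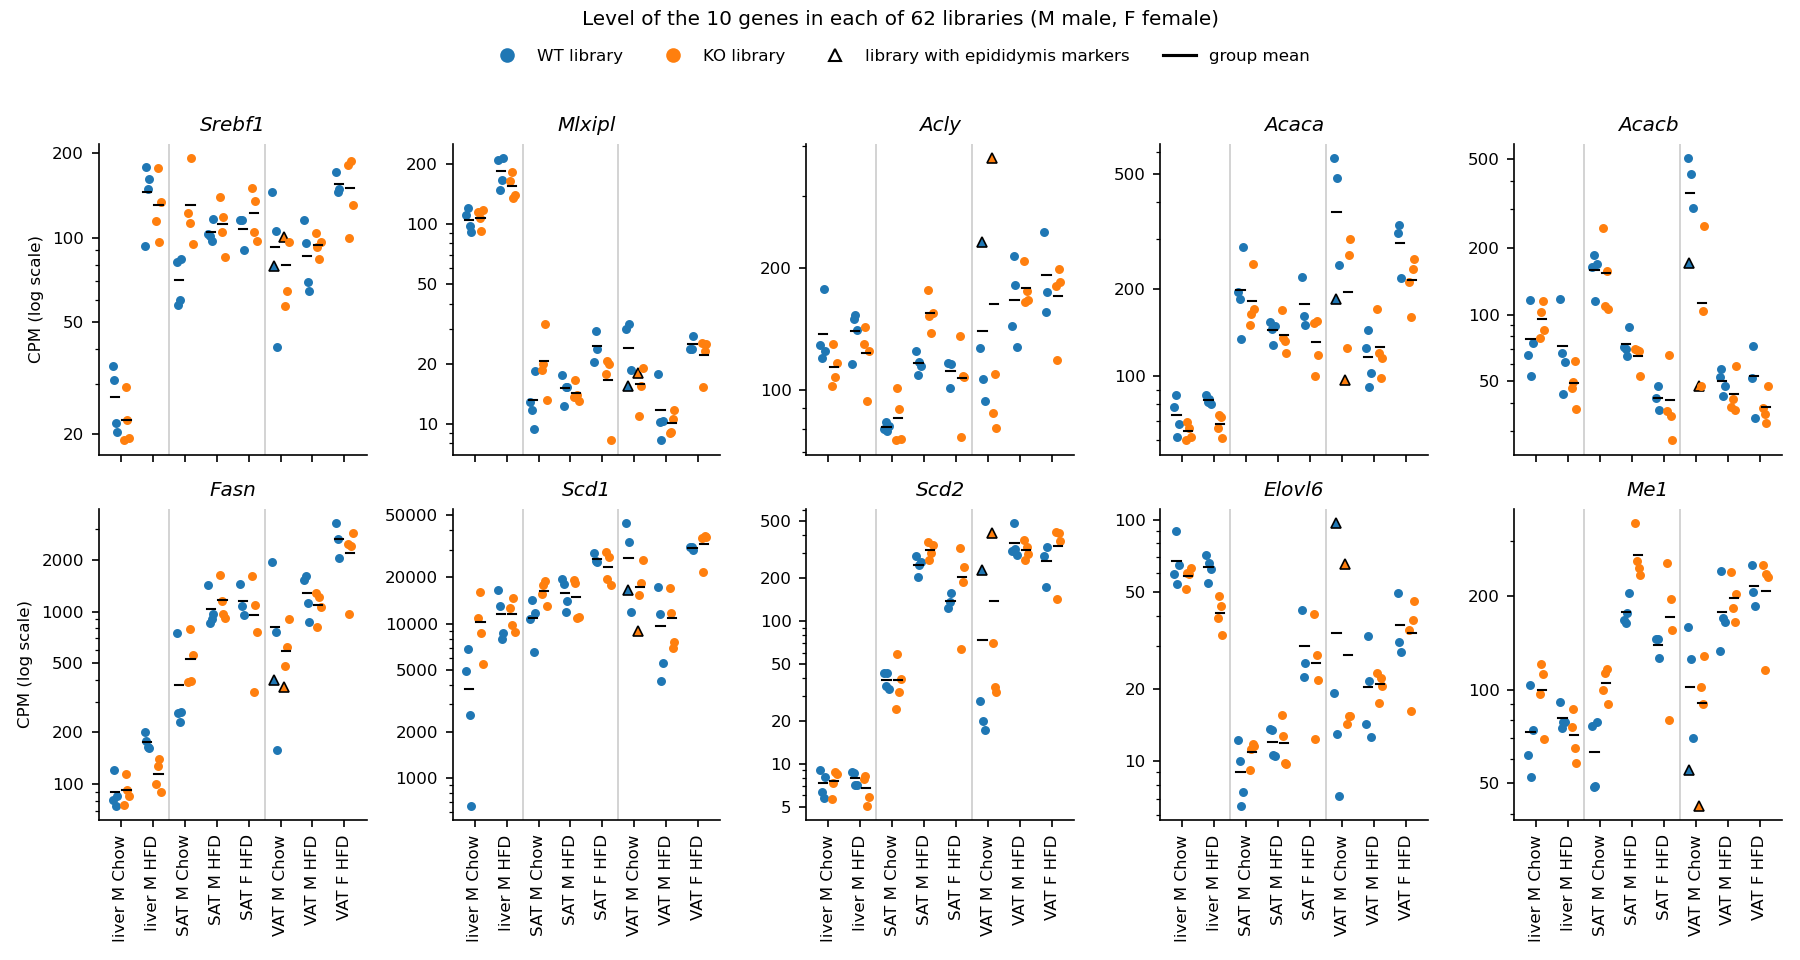
Level of each of the 10 genes in every library (CPM, log axis), with males by tissue, diet and genotype and females on HFD. Points are libraries, triangles are the libraries with epididymis markers and bars are group means. HFD liver stands apart from chow liver for Srebf1, and 2 chow VAT libraries stand above the other 6 for Scd2 and Elovl6.

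In male liver, both regulators were higher on HFD than on chow. Srebf1 had the largest change of the 10 genes. Its level on chow was 34.9, 31.1, 21.8 and 20.3 CPM in WT and 18.9, 29.3, 22.3 and 19.3 CPM in KO. On HFD it was 93.7, 179, 148 and 161 CPM in WT and 114, 177, 96.7 and 134 CPM in KO. Every HFD library was above every chow library in both genotypes. The change was 2.42 ± 0.14 (edgeR adjusted p = 7.4e-09). The gene whose exons overlap Srebf1 on the opposite strand is Rai1. Mlxipl ranged from 91.0 to 120 CPM over the 8 chow libraries and from 135 to 214 CPM on HFD, again without overlap, a rise of 0.62 ± 0.10 (edgeR adjusted p = 1.5e-04).

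The enzymes in liver did not share 1 direction. Fasn, whose product is fatty acid synthase, was at 80.4, 120, 75.0 and 85.1 CPM in WT and 75.7, 115, 92.1 and 85.3 CPM in KO on chow. On HFD it was at 201, 178, 164 and 162 CPM in WT and 99.8, 127, 139 and 89.8 CPM in KO. The WT libraries on HFD lay above all others, and the KO libraries on HFD overlapped the chow libraries. Fasn rose by 0.59 ± 0.14 (edgeR adjusted p = 0.0039). Scd1 was at 4938, 6875, 2582 and 664 CPM in chow WT and 10847, 15929, 8704 and 5512 CPM in chow KO. On HFD it was at 16553, 13041, 7972 and 8669 CPM in WT and 12669, 9855, 14569 and 8791 CPM in KO. The WT groups did not overlap and the KO groups did, with 1 chow WT library far below the rest. Scd1 rose by 0.87 ± 0.38 (edgeR adjusted p = 0.084). That call was lost when any of 8 of the 16 libraries was left out, and without the libraries with over 25% ribosomal RNA (0.85, adjusted p = 0.17).

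Acacb and Elovl6 fell in liver. Acacb encodes the carboxylase at the mitochondrial surface, whose malonyl-CoA is known to hold back fatty acid oxidation. It had a median of 81.8 CPM over the chow libraries (52.8 to 117) and of 55.4 CPM on HFD (37.6 to 117), a change of -0.59 ± 0.21 (edgeR adjusted p = 0.040). Elovl6 had medians of 59.8 CPM (51.6 to 89.9) and 51.5 CPM (33.4 to 71.5), with a change of -0.35 ± 0.12 (edgeR adjusted p = 0.026). Both sets of ranges overlapped. Acaca, the cytosolic carboxylase, differed by 0.06 ± 0.07, Acly by 0.00 ± 0.10, Me1 by -0.21 and Scd2 by -0.07, and none of the 4 passed the test. In all, 4 members rose and 2 fell in liver, against 40.8% of 14476 genes called (20.6% higher and 20.2% lower). The median member changed by 0.03 and the median gene by -0.00.

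The groups did not overlap between diets for Fasn, Scd1, Srebf1 and Mlxipl among WT livers, all higher on HFD, where 17.6% of genes did not overlap. Among KO livers the same held for Srebf1 and Mlxipl, higher, and for Acacb and Elovl6, lower, where 9.08% of genes did not overlap. Fitted within each genotype, the change of Srebf1 was 2.37 in WT and 2.46 in KO. That of Fasn was 0.92 in WT and 0.22 in KO (edgeR adjusted p = 0.0012 and 0.47). Acacb changed by -0.15 in WT and by -1.11 in KO (adjusted p = 0.75 and 7.3e-04 by the same test). The difference of the diet effect between genotypes was called for 0 of the 10 members and 0% of all genes in liver by edgeR. DESeq2 called 0 of 10 members, against 24 of 14476 genes. At an unadjusted edgeR p within 0.05 the count was 5 of 10, against 6.41% of all genes. The 5 were Fasn (-0.69), Acacb (-0.95), Scd1 (-1.42), Elovl6 (-0.49) and Me1 (-0.65), each with a lower diet effect in KO, and the lowest edgeR adjusted p was 0.62. All 3 liver libraries with over 25% ribosomal RNA were KO, at 45.9% and 30.5% on chow and 75.4% on HFD. Their part in these differences was not tested. Hepatocyte markers summed to 81504 to 130802 CPM on chow and 91047 to 131262 CPM on HFD, with 4 of 8 higher by their mean on HFD.

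**Figure D2:**
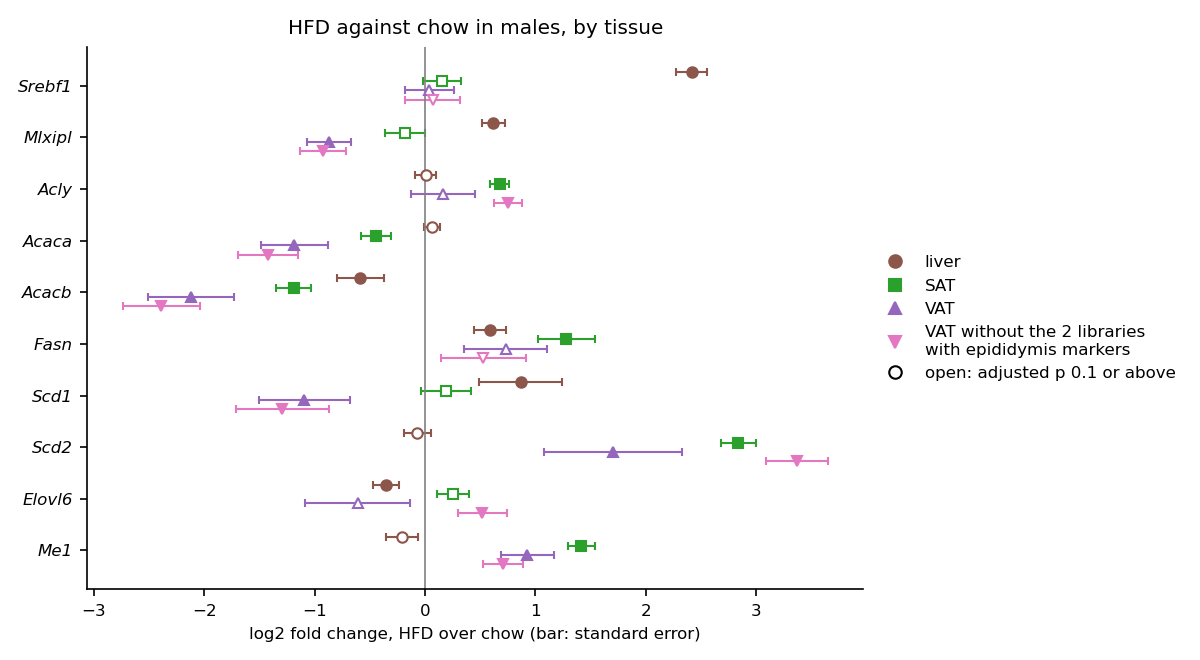
HFD effect on each gene in male liver, SAT and VAT, and in VAT without the 2 libraries with epididymis markers (log2 fold change, HFD over chow), with bars of 1 standard error and filled points where the edgeR test passed a false discovery rate of 10%. Srebf1 rose by 2.42 in liver and differed by 0.15 and 0.04 in SAT and VAT, while Scd2 rose by 2.84 in SAT and 1.70 in VAT and differed by -0.07 in liver.

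In male SAT, 6 of the 8 enzymes were called with HFD, against 58.0% of all genes, and neither regulator was called over both genotypes. Scd2 was at 43.0, 35.3, 43.4 and 33.6 CPM in chow WT and 24.3, 59.3, 31.8 and 39.0 CPM in chow KO. HFD libraries were at 285, 205, 247 and 259 CPM in WT and 357, 269, 302 and 340 CPM in KO. No HFD library was near the chow range, and the rise was 2.84 ± 0.16 (edgeR adjusted p = 1.5e-07). Me1, the cytosolic malic enzyme, was at 76.3, 48.7, 49.2 and 78.8 CPM in chow WT and 100, 113, 117 and 89.9 CPM in chow KO. The HFD values were 168, 165, 176 and 205 CPM in WT and 344, 258, 246 and 235 CPM in KO. Both genotypes rose without overlap, by 1.41 ± 0.12 (edgeR adjusted p = 3.8e-06).

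Fasn in SAT was at 748, 259, 228 and 263 CPM in chow WT and 392, 788, 394 and 560 CPM in chow KO. On HFD the levels were 1420, 860, 903 and 969 CPM in WT and 1619, 1153, 972 and 914 CPM in KO. All HFD libraries lay above all chow libraries, with 1 WT and 1 KO chow library well above the others. The rise was 1.28 ± 0.26 (edgeR adjusted p = 0.0012). Acly went from a median of 80.7 CPM (74.9 to 101) to 131 CPM (108 to 176), also without overlap, by 0.67 ± 0.08 (edgeR adjusted p = 4.8e-05). Acacb moved the other way, from 164, 186, 115 and 170 CPM in chow WT and 246, 109, 157 and 106 CPM in chow KO. On HFD it was at 71.3, 69.9, 65.3 and 87.8 CPM in WT and 70.1, 69.2, 68.6 and 52.7 CPM in KO. Every HFD library was below every chow library, and the change was -1.19 ± 0.16 (edgeR adjusted p = 8.2e-05). The chow KO library with 246 CPM also had skeletal muscle markers summing to 16965 CPM, and their part in that value was not tested.

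Acaca fell in SAT by -0.44 ± 0.14 (edgeR adjusted p = 0.015). Srebf1 differed by 0.15 and Mlxipl by -0.18, Scd1 by 0.19 and Elovl6 by 0.25, none of them called. In all, 4 members rose and 2 fell, against 58.0% of 17292 genes called (28.5% higher and 29.6% lower). The median member changed by 0.22 and the median gene by -0.02. Between diets, 5 members were higher without overlap in WT SAT (Fasn, Acly, Scd2, Me1 and Srebf1) and Acacb lower, where 35.8% of genes did not overlap. In KO SAT the count was 4 higher (Fasn, Acly, Scd2 and Me1) and Acacb lower, where 16.8% did not. Fitted within WT, Srebf1 rose by 0.52 (edgeR adjusted p = 0.014), and within KO it differed by -0.26 (edgeR adjusted p = 0.48). The difference of the 2 did not pass the edgeR test (-0.76, adjusted p = 0.22). Adipocyte markers summed to 7022 to 21394 CPM on chow and 15817 to 24268 CPM on HFD, with 9 of 10 higher by their mean on HFD and none of the 10 at 0. B and T cell markers summed to 7.80 to 641 CPM on chow and 7.27 to 235 CPM on HFD, and skeletal muscle markers to 48.7 to 16965 CPM and 32.6 to 1714 CPM. Of these lists, 0 of 10 and 0 of 6 were higher by their mean on HFD. The part of the muscle markers in the SAT changes was not tested. With an adipocyte marker score in the fit the 6 calls stood, and Mlxipl was called lower (-0.45, edgeR adjusted p = 0.045). With a B and T cell marker score Acaca was no longer called (-0.44, edgeR adjusted p = 0.11) and Mlxipl was (-0.56, adjusted p = 0.060).

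In male VAT, 4 members fell on HFD and 2 rose, against 44.2% of 17330 genes called (23.2% lower and 21.0% higher). The spread among chow libraries was wide. Acacb was at 508, 170, 428 and 302 CPM in chow WT and 47.8, 47.6, 104 and 250 CPM in chow KO. HFD libraries held 52.4, 57.0, 42.9 and 47.6 CPM in WT and 38.3, 41.7, 37.2 and 58.7 CPM in KO. In WT the diets did not overlap, and in KO they did. The change was -2.12 ± 0.39 (edgeR adjusted p = 6.6e-04). Acaca fell by -1.18 ± 0.31 (edgeR adjusted p = 0.0071), from a median of 254 CPM (97.0 to 571) to 118 CPM (92.2 to 172). Mlxipl fell by -0.87 ± 0.20 (edgeR adjusted p = 0.0032), from a median of 18.3 CPM (up to 31.7) to 10.3 CPM (8.34 to 17.8).

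Scd1 fell in VAT, opposite to its direction in liver. It was at 44728, 16596, 33556 and 11862 CPM in chow WT and 8979, 15396, 18424 and 25892 CPM in chow KO. The HFD libraries were at 17306, 11455, 4271 and 5556 CPM in WT and 17092, 11731, 6961 and 7549 CPM in KO. The diets overlapped in both genotypes, and the change was -1.09 ± 0.41 (edgeR adjusted p = 0.048). Me1 rose by 0.93 ± 0.24 (edgeR adjusted p = 0.0071), from a median of 96.1 CPM (42.4 to 159) to 177 CPM (133 to 241). Without the filter on low counts Scd1 was not called (-1.01, edgeR adjusted p = 0.25). Fasn differed by 0.73 ± 0.37 and Srebf1 by 0.04, neither called by edgeR, though DESeq2 and limma-voom called Fasn (adjusted p = 0.076 and 0.051), with chow Fasn libraries from 158 to 1948 CPM. DESeq2 gave no adjusted p for Scd2 in VAT, and it called the other 5 members that edgeR called.

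Scd2 in VAT was at 27.4, 228, 19.9 and 17.1 CPM in chow WT and 414, 70.4, 34.3 and 31.6 CPM in chow KO. On HFD it was at 311, 488, 319 and 290 CPM in WT and 373, 269, 333 and 296 CPM in KO. Of the chow libraries, 2 lay far above the other 6, at 228 and 414 CPM. The change over all 16 libraries was 1.70 ± 0.63 (edgeR adjusted p = 0.045), and without the libraries with over 25% ribosomal RNA 1.65 (adjusted p = 0.11). Those 2 libraries, WT replicate 2 and KO replicate 1, also stood apart in transcripts of the epididymis, the organ the male gonadal fat pad is attached to. The 7 epididymis markers summed to 4918 and 10164 CPM there and to at most 62.6 CPM in the other 6 chow VAT libraries. Their part in the Scd2 values was not tested. Elovl6 and Acly were likewise higher in these 2 libraries than in the other 6, with 96.8 and 65.3 CPM of Elovl6 against 7.21 to 19.2 CPM, and 231 and 373 CPM of Acly against 80.4 to 126 CPM. Me1 went the other way, with 55.3 and 42.4 CPM against 69.8 to 159 CPM in the other 6.

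**Figure D3:**
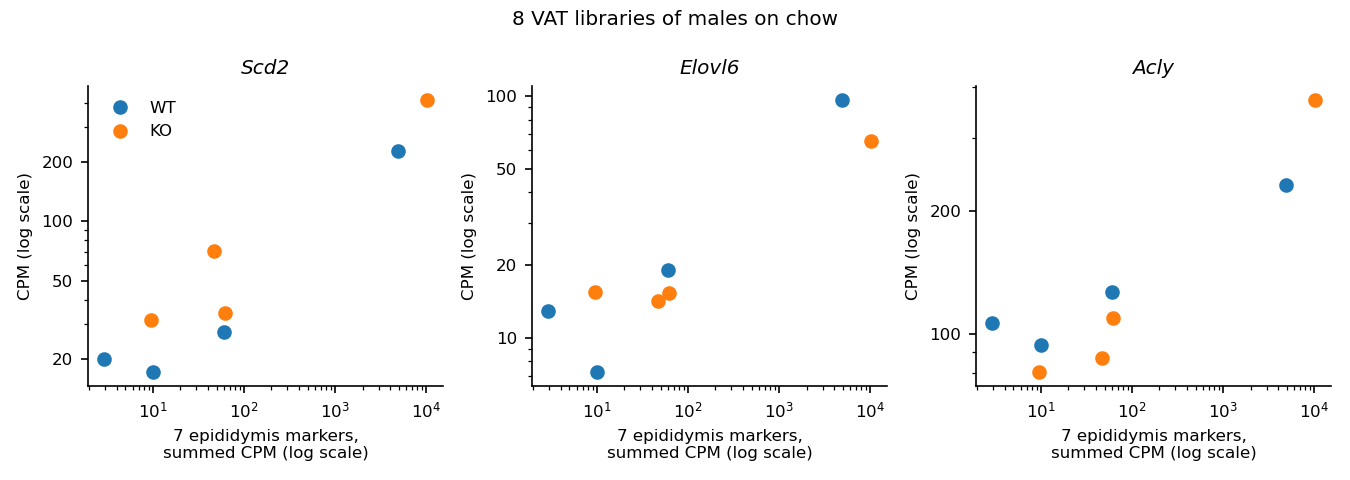
Scd2, Elovl6 and Acly in the 8 male chow VAT libraries (CPM, log axis) against the summed CPM of 7 epididymis markers (log axis). The 2 libraries with marker sums of 4918 and 10164 CPM hold the highest Scd2, Elovl6 and Acly.

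Without these 2 libraries, a step added after the data were seen, 8 of the 10 members were called in VAT, against 45.4% of 17229 genes, where 6 were called with all libraries. Scd2 then rose by 3.37 (edgeR adjusted p = 2.3e-05), Acly by 0.75 (adjusted p = 5.8e-04 by the same test) and Elovl6 by 0.52 (adjusted p = 0.082), the last from -0.61 with all libraries (adjusted p = 0.34). The other called members kept their direction, with Acacb at -2.39, Acaca at -1.42, Scd1 at -1.29, Mlxipl at -0.92 and Me1 at 0.70, and Fasn was again not called at 0.53 (adjusted p = 0.31). With all libraries, the median member changed by -0.29 and the median gene by -0.04. Between diets, Scd2 was higher and Acaca and Acacb lower without overlap in WT VAT, where 20.1% of genes did not overlap. In KO VAT this held for Me1 alone, higher, where 21.8% did not. Macrophage markers also moved with diet in male VAT, from sums of 290 to 1037 CPM on chow to 1298 to 3222 CPM on HFD, with 5 of 7 higher in every HFD library and none at 0. The part of the macrophage markers in the VAT changes was not tested. Adipocyte markers summed to 7647 to 22299 CPM on chow and to 8802 to 17128 CPM on HFD. Of the 10, 2 were higher by their mean on HFD, and 1 was lower in every HFD library. With an adipocyte marker score in the fit of all 16 libraries, Scd1 (-0.11, edgeR adjusted p = 0.80) and Acaca (-0.25, adjusted p = 0.38) were no longer called, and Fasn was called higher (1.56, adjusted p = 0.012).

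Set side by side, the diet effect had 1 sign in all 3 tissues for 4 members (Fasn, Acacb, Acly and Srebf1). Only Acacb was called in all 3, lower each time. Scd1 and Mlxipl were called higher in liver and lower in VAT. The difference between tissues was tested in 1 fit of the 48 male libraries. Between liver and SAT it was called for 4 members, against 27.7% of all genes (15.5% with the higher effect in liver and 12.2% with the lower). These were Srebf1 (2.31 ± 0.27, edgeR adjusted p = 2.0e-07) and Mlxipl (0.84), with the higher effect in liver, and Scd2 (-2.87) and Me1 (-1.60), with the higher effect in SAT. Between liver and VAT it was called for 7 members, against 33.6% of all genes (18.8% and 14.8%). Srebf1 (2.41 ± 0.27, edgeR adjusted p = 2.1e-08), Scd1 (1.95), Acacb (1.53), Mlxipl (1.52) and Acaca (1.27) had the higher effect in liver, and Scd2 (-1.74) and Me1 (-1.13) in VAT. Between SAT and VAT it was called for 4 members, against 36.9% of all genes (19.1% with the higher effect in SAT and 17.8% with the lower). They were Scd1 (1.27), Acacb (0.90), Acaca (0.72) and Mlxipl (0.68), each with the higher or less negative effect in SAT. These 3 contrasts share libraries. Without the 2 libraries with epididymis markers, the liver to VAT contrast also called Acly (-0.73) and Elovl6 (-0.89), and the SAT to VAT contrast called Scd2 (-0.64) and Me1 (0.62).

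Genes that act beside these 10 were followed in lists of precursor supply, NADPH supply, regulators, other elongases and desaturases, other targets of SREBP-1 or ChREBP, and SREBP-2 targets of cholesterol synthesis. Their counts stand against the shares of all genes given above, 20.6% higher and 20.2% lower in liver, 28.5% and 29.6% in SAT, and 21.0% and 23.2% in VAT. In liver, 10 of 12 tested precursor genes rose and 1 fell (median 0.33). The pyruvate kinase gene Pklr rose by 1.33 and ketohexokinase (Khk) by 1.03. Among other SREBP-1 or ChREBP targets, 5 of 10 rose and 2 fell, with Aacs at 3.53, Thrsp at 3.44, the triglyceride synthesis gene Dgat2 at 0.97 and Arrdc4 at -1.14. Insig2, which retains SREBP precursors in the endoplasmic reticulum, changed by -1.87 in liver, and Insig1 by 0.53. They were among 5 of 11 regulators that rose and 1 that fell. Of the other elongases and desaturases, 1 of 10 rose and 4 fell, with Elovl3 at -1.54 and Elovl2 at -1.21. In the NADPH list, 3 of 7 rose, and in the SREBP-2 list 6 of 17 rose and 2 fell.

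In SAT, 14 of 16 tested cholesterol synthesis genes rose and none fell (median 0.80), with Nsdhl at 1.83 and Lss at 1.44. Precursor genes rose in 9 of 11, among them the citrate carrier Slc25a1 (1.97) and acetyl-CoA synthetase Acss2 (1.66). NADPH genes rose in 6 of 8, with isocitrate dehydrogenase Idh1 at 1.26. Of other targets 7 of 10 rose and 1 fell, with Pnpla3 at 2.19 and Dgat2 at 1.73. Of the other elongases and desaturases 6 of 12 rose and 3 fell, and of regulators 2 of 11 rose and 2 fell, with Insig1 at 1.61 and Ppargc1b at -1.27. In VAT, 9 of 16 cholesterol synthesis genes rose and none fell (median 0.76), with Dhcr7 at 2.20. Nearer the share of all genes, precursor genes rose in 4 of 13 (Acss2 1.28, Slc25a1 1.22) and NADPH genes in 2 of 8 with 1 lower (Idh1 1.38), while regulators rose in 5 of 11 with 2 lower (Insig1 1.88). Other targets rose in 2 of 10 and fell in 4, with Pnpla3 at 1.31, Dgat2 at 1.26 and the acyltransferase gene Gpam at -1.06. Other elongases and desaturases rose in 2 of 13, and 1 fell. The median over all genes was -0.00 in liver, -0.02 in SAT and -0.04 in VAT.

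For KO against WT, few of the 10 genes passed the test. In SAT, over 23 libraries of both sexes, 1 member was called, against 4.33% of 18366 genes (3.45% higher and 0.888% lower in KO). Me1 was higher in KO by 0.54 ± 0.14 (edgeR adjusted p = 0.045). In male SAT every KO library was above every WT library on chow and again on HFD, by the values given above. In female SAT Me1 was at 146, 146 and 126 CPM in WT and 256, 79.9, 196 and 156 CPM in KO, so that 1 KO library was below and 3 above all WT libraries. With an adipocyte marker score in the fit Me1 differed by 0.37 (edgeR adjusted p = 0.22), and with surrogate variables by 0.36 (adjusted p = 0.17). In male chow SAT the adipocyte markers summed to 12937 to 21394 CPM in KO and 7022 to 14407 CPM in WT, with all 10 higher by their mean. B and T cell markers there summed to 7.80 to 437 CPM in KO and 201 to 641 CPM in WT, with none of 10 higher by its mean. Skeletal muscle markers summed to 125 to 16965 CPM in KO and 48.7 to 245 CPM in WT, with all 6 higher by their mean. In male HFD SAT, adipocyte markers summed to 16486 to 24268 CPM in KO and 15817 to 20904 CPM in WT, with 9 of 10 higher by their mean. B and T cell markers were at 7.36 to 9.41 CPM in KO and 7.27 to 235 CPM in WT, and skeletal muscle markers at 32.6 to 125 CPM and 106 to 1714 CPM, with 0 of 10 and 0 of 6 higher in KO by their mean. The part of the muscle markers in the Me1 values was not tested.

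Srebf1 in male chow SAT was at 82.2, 57.4, 60.1 and 84.0 CPM in WT and 122, 112, 193 and 94.9 CPM in KO, without overlap. On HFD its level was 103, 101, 96.9 and 117 CPM in WT and 139, 104, 119 and 85.2 CPM in KO, with overlap. Over all SAT libraries the KO effect was 0.38 ± 0.13, which edgeR did not call (adjusted p = 0.13) and DESeq2 did (adjusted p = 0.074). In male SAT, KO and WT did not overlap for Me1 and Srebf1 on chow, where 9.03% of genes did not, and for Acly and Me1 on HFD, where 8.42% did not. KO was the higher in each. In female SAT no member was without overlap, where 5.97% of genes did not. Of the pathway lists, those of SAT held 5 of 16 cholesterol synthesis genes, 4 of 11 precursor genes, 3 of 11 regulators, 3 of 10 other targets, 2 of 8 NADPH genes and 2 of 12 elongases and desaturases, each higher in KO, with none lower, against 3.45% of all genes higher. Insig1 was higher in KO SAT by 0.98 (edgeR adjusted p = 0.0089), Dgat2 by 0.89 (adjusted p = 0.051 by the same test) and Idh1 by 0.57. Adipocyte markers were also higher in male KO SAT by their mean, 10 of 10 on chow and 9 of 10 on HFD. With an adipocyte marker score in the SAT fit, the genes called higher in KO went from 633 to 188 of 18366. The part of the adipocyte markers in these list counts was not tested.

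In VAT, edgeR called 0 of 10 members for KO against WT, where 0.00527% of 18975 genes were called. At an unadjusted p within 0.05 there were 2, Acacb (-0.78 ± 0.28) and Mlxipl (-0.33 ± 0.15), against 8.42% of all genes. DESeq2 and limma-voom called 0 of 10, against 101 and 2 of 18975 genes. In male chow VAT Acacb was at 47.8, 47.6, 104 and 250 CPM in KO against 170 to 508 CPM in WT, so that 3 KO libraries were below all WT libraries. The KO library at 47.8 CPM and the WT library at 170 CPM are the 2 with epididymis markers. The other WT libraries were at 508, 428 and 302 CPM. Without those 2, the KO effect on Acacb in VAT was -0.69 ± 0.25 (edgeR adjusted p = 0.43). On HFD the genotypes overlapped for Acacb. In liver edgeR called 0 of 10, and 0% of 14476 genes. At an unadjusted p within 0.05 there were 3, Elovl6 (-0.37 ± 0.12), Acaca (-0.18 ± 0.07) and Scd1 (0.81 ± 0.38), against 9.78% of all genes. DESeq2 and limma-voom called 0 of 10, against 91 and 2 of 14476 genes. On HFD, liver Fasn, Acaca and Elovl6 were each lower in all KO than in all WT libraries, where 3.70% of genes did not overlap. For Elovl6 these were 39.0, 48.2, 43.8 and 33.4 CPM in KO and 71.5, 54.8, 66.2 and 62.4 CPM in WT. Of these KO libraries, replicate 3 had 75.4% ribosomal RNA. All 3 liver libraries with over 25% ribosomal RNA were KO. Without them, 2 of 10 members had an unadjusted edgeR p within 0.05 for KO, against 2153 of 15240 genes. With all libraries in, no member was without overlap between genotypes in chow liver or in any VAT group. The share of genes without overlap was 3.17% in chow liver and 3.64%, 1.79% and 6.34% in male chow, male HFD and female HFD VAT. In the pathway lists no gene was called for KO in VAT or liver by edgeR.

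**Figure D4:**
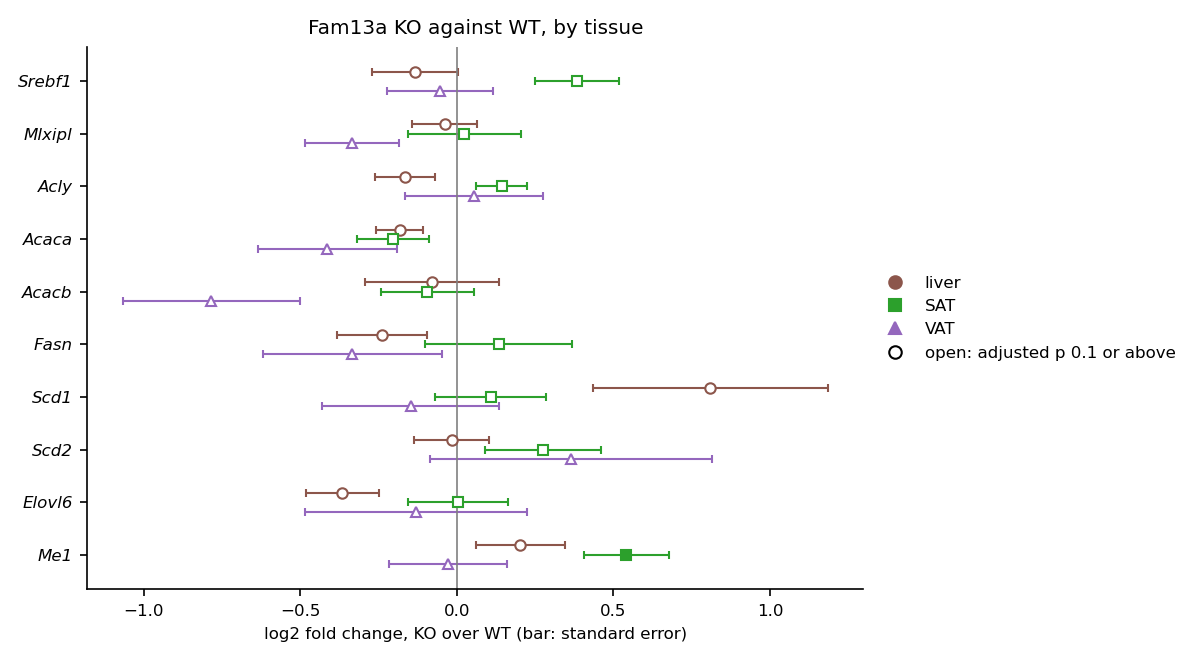
KO effect on each gene in liver, SAT and VAT (log2 fold change, KO over WT), with bars of 1 standard error and filled points where the edgeR test passed a false discovery rate of 10%. Only Me1 in SAT, at 0.54, passed.

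With male SAT and VAT in 1 fit, edgeR called 0 of 10 members, against 3.97% of 18561 genes. At an unadjusted p within 0.05 there was 1, Acacb at -0.58 (edgeR adjusted p = 0.20), a count no higher than the 17.0% of all genes would give. DESeq2 and limma-voom called 0 of 10, against 1320 and 691 of 18561 genes. With an adipocyte marker score in that fit Acacb was lower in KO by -0.76 and Acaca by -0.44 (edgeR adjusted p = 0.028 and 0.062). In the fit without that score, 5 of 8 NADPH genes were higher in KO, with Idh1 at 0.61. So were 2 of 13 precursor genes, 2 of 16 cholesterol synthesis genes and 1 gene in each other list. Insig1 was among them, at 0.71 (edgeR adjusted p = 0.014). The part of the adipocyte markers in these counts was not tested. The KO effect differed between SAT and VAT for 0 of 10 members and 0% of genes by edgeR. At an unadjusted p within 0.05 there were 2 (Me1 0.68, Mlxipl 0.69), against 11.8% of all genes. DESeq2 called 0 of 10 for it, against 36 of 18561 genes. For the diet effect between genotypes, edgeR called 0 of 10 in SAT and 0 of 10 in VAT, against 0.0173% and 0.00577% of genes. DESeq2 called 0 of 10 in each, against 957 of 17292 genes in SAT and 102 of 17330 in VAT. At an unadjusted p within 0.05 there were 3 in SAT (Acly 0.36, Srebf1 -0.76, Mlxipl -0.72) and 1 in VAT (Acacb 1.45), against 17.4% and 9.16% of all genes. With all libraries the standard error in VAT reached 1.21 for Scd2, so that a difference of that size would not pass the test there. Without the 2 libraries with epididymis markers, edgeR again called 0 of 10 members in VAT, and 0% of genes. At an unadjusted edgeR p within 0.05 there were then 3, against 1624 of 17229 genes. These were Scd2 (-1.21 ± 0.38, adjusted p = 0.44), Acacb (1.43) and Acaca (1.04).

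On HFD the sexes differed in both depots. In VAT, 6 members were higher in females and none lower, against 39.5% of 17538 genes called (19.5% higher and 20.0% lower). Scd1 had a median of 31306 CPM in females (21511 to 37040) and 9502 CPM in males (4271 to 17306), without overlap, a difference of 1.59 ± 0.30 (edgeR adjusted p = 8.4e-04). Mlxipl was at 15.2 to 27.5 CPM in females and 8.34 to 17.8 CPM in males, higher by 1.09 ± 0.15 (edgeR adjusted p = 8.8e-05). Fasn and Acaca were each higher by 0.99, Elovl6 by 0.73 and Srebf1 by 0.72, and Acacb, Acly, Scd2 and Me1 were not called. Macrophage markers summed to 438 to 776 CPM in female and 1298 to 3222 CPM in male VAT, with 7 of 7 lower in every female library. Adipocyte markers summed to 17749 to 24412 CPM in females and 8802 to 17128 CPM in males, with 7 of 10 higher in every female library. Their part in the VAT differences was not tested.

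In SAT, 3 members were higher in females and 4 lower, against 26.6% of 17681 genes called (13.5% higher and 13.1% lower). Elovl6 was at a median of 25.5 CPM in females (12.4 to 42.4) and 11.6 CPM in males (9.73 to 15.6), with 1 female library inside the male range, a difference of 1.22 ± 0.21 (edgeR adjusted p = 7.2e-04). Scd1 (0.71) and Mlxipl (0.47) were also higher. Scd2 (-0.71), Acacb (-0.69), Me1 (-0.49) and Acly (-0.29) were lower in females. Mammary epithelium markers summed to 114 to 269 CPM in female and 0.166 to 6.63 CPM in male SAT, with 6 of 10 higher in every female library and the milk protein gene Wap at 0 in both sexes. Their part in the SAT differences was not tested.

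**Figure D5:**
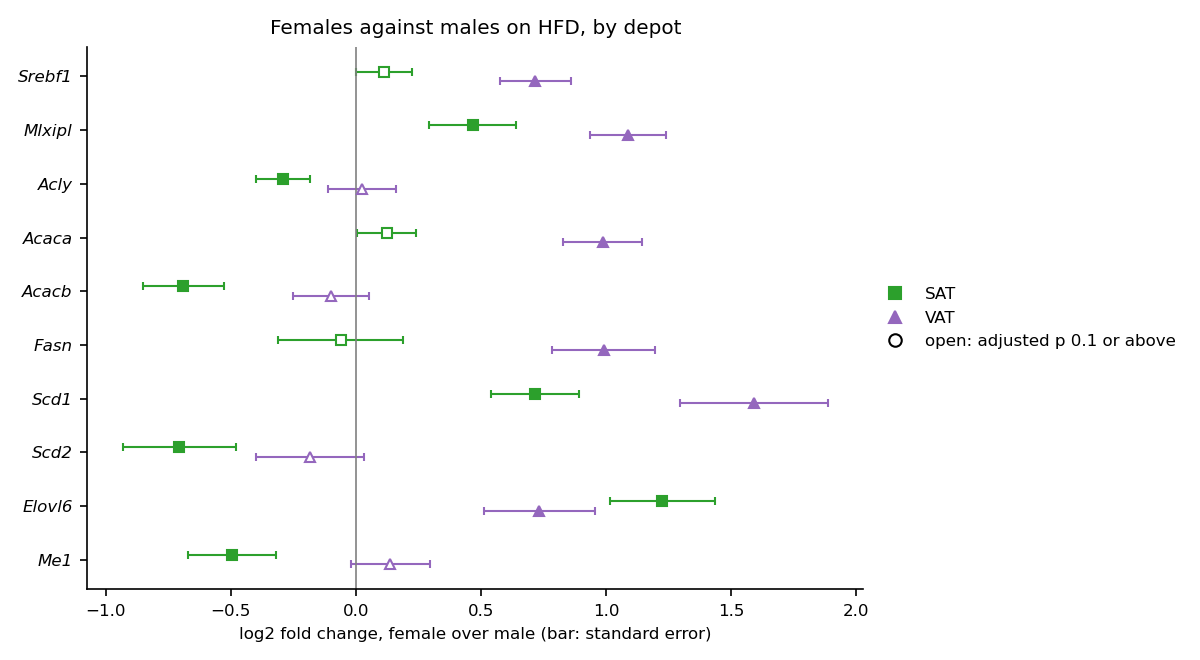
Female minus male difference on HFD for each gene in SAT and VAT (log2 fold change), with bars of 1 standard error and filled points where the edgeR test passed a false discovery rate of 10%. In VAT 6 genes were higher in females, with Scd1 at 1.59, and in SAT 3 were higher and 4 lower.

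Within groups, the members varied together to different degrees. Over the 62 libraries, after the mean of each group was taken out, the 45 pairs of members had a median Pearson r of 0.34, and 33 were above 0. The highest were Acly with Scd2 (0.83), Scd2 with Elovl6 (0.82) and Acly with Elovl6 (0.79). In VAT these were 0.89, 0.91 and 0.89, with both libraries that hold epididymis markers among the points. In SAT they were 0.84, 0.57 and 0.73, and in liver 0.11, 0.18 and -0.34. Over the 62 libraries, the lowest was Acacb with Scd2 (-0.57). Among 11926 genes with a mean of at least 1 CPM in every tissue, the genes most like Fasn by the same measure included Acss2 (0.74), Tkt (0.74), Pcx (0.71) and Col5a3 (0.70). The points share library scaling and tissue makeup, and the values are descriptions.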

How the data were processed

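RNA-seq counts from 62 mouse libraries were used as deposited. The authors aligned reads to the mouse genome (mm10) with STAR, whose version is 2.5.3a per the submitters' processing notes, and deposited raw counts per gene over all libraries in 1 table. The count column taken from a stranded library is not stated. Groups came from the labels, which number no replicates, and numbers here follow accession order. Flow cell and lane were read from the sample titles.

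Counts were tested with edgeR 4.0.16 (TMM scaling, filterByExpr, quasi-likelihood test, Benjamini-Hochberg adjustment over all tested genes) in R 4.3.3 at a false discovery rate of 10%. Diet effects were fitted per tissue in males with genotype as a covariate. Tissue differences used all 48 male libraries, KO effects used diet and sex where present, and sex was compared on HFD with genotype as a covariate. The ribosomal RNA gene was left out of TPM only. The fits were tested on simulated data. Log2 CPM used a prior count of 2, and TPM used merged exon lengths (GENCODE M21). The alternatives were other size factors, no count filter, DESeq2 1.42.0, limma-voom 3.58.1, a rate of 5%, each library left out, libraries rich in ribosomal RNA left out, WT or KO only, 1 flow cell, males only, cell marker scores as covariates, and surrogate variables (sva 3.50.0). Up to 5 genes per pathway list were named, those called with the lowest p, and some genes that this rule or the likeness to Fasn selects are not reported here. The members and lists were chosen with earlier results of these data known.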

Additional observations from a re-analysis of the deposited data

Results flagged for a closer look

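Among 140 groups of 4 libraries tested for a library far from the others, 8 were found, and chance gives about 1 in 20. Replicate 2 of female HFD VAT KO was the lowest of its group for 4 members, with Fasn at 973 CPM (the others at 2398 to 2871), Scd1 at 21511 CPM (35767 to 37040), Scd2 at 143 CPM (366 to 419) and Me1 at 116 CPM (231 to 251). Fasn in male chow SAT WT replicate 1 was at 748 CPM, with the others at 228 to 263. Elovl6 in male chow VAT KO replicate 1, a library with epididymis markers, was at 65.3 CPM, with the others at 14.2 to 15.4. Acacb in male HFD SAT KO replicate 4 was at 52.7 CPM (68.6 to 70.1), and Mlxipl in female HFD SAT KO replicate 4 at 8.27 CPM (17.8 to 20.7).

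The diet effect differed between tissues, by edgeR's quasi-likelihood test of the difference with adjustment over all genes, for 15 pairs of a member and a contrast. Between liver and SAT these were Scd2 (-2.87), Me1 (-1.6), Srebf1 (2.31) and Mlxipl (0.84). Between liver and VAT these were Acaca (1.27), Acacb (1.53), Scd1 (1.95), Scd2 (-1.74), Me1 (-1.13), Srebf1 (2.41) and Mlxipl (1.52). Between SAT and VAT they were Acaca (0.72), Acacb (0.9), Scd1 (1.27) and Mlxipl (0.68).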

How the results depend on the processing

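No paired analysis was possible because the labels give no replicate numbers. Of 1140 member values under other settings, 1087 were counted as unchanged, 22 lost their call, 26 gained one and 5 turned. Among the 1087, 64 uncalled values changed sign. Another 5 of them had no adjusted p, so that their side of the threshold is not known. The 5 that turned did so without the 2 libraries with epididymis markers, a setting chosen after seeing the data. They were Elovl6 for HFD in VAT (0.52) and for liver minus VAT (-0.89), Scd2 for SAT minus VAT (-0.64), and on chow Acly for liver minus VAT (0.32) and Scd2 for VAT minus SAT (-0.35). The cause was not tested. The count of members called for KO in SAT went from 1 to 2 with DESeq2, to 0 with an adipocyte score and to 0 with surrogate variables. Over all 18366 genes it went from 796 to 1628, 267 and 344. For male SAT and VAT the count of members went from 0 to 2 with an adipocyte score, and that over all 18561 genes from 736 to 761.

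With each library left out, of 5400 values 5299 kept their side of the threshold, 65 lost and 36 gained their call, and 0 called values turned. Among the 5299, 101 uncalled values changed sign. The count of members ranged from 2 to 6 for the diet effect between SAT and VAT, from 1 to 3 for KO in SAT, from 0 to 2 for diet by KO in SAT and from 3 to 6 for VAT minus SAT on chow. The lowest SAT minus VAT count came without male chow SAT WT replicate 3 or male chow VAT WT replicate 1. The KO count of 3 came without female HFD SAT KO replicate 2, and the diet by KO count of 2 without male chow SAT KO replicate 4. For VAT minus SAT, 3 came without male chow SAT WT replicate 3, VAT KO replicate 3 or 4, or VAT WT replicate 1 or 3. The lowest library total limits what can be seen of weak changes.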
